A study of Mus musculus with 20 samples.

Results

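Zcchc8 KO clone 1 is a line of SIMS cells, an immortalised mouse salivary gland epithelial line, in which Zcchc8 was targeted with CRISPR/Cas9. Its 4 libraries were compared with the 4 libraries of wild-type SIMS cells, 8 of the 20 libraries of the series, and the members were chosen by the library titles. The other 12 libraries came from Zcchc8 KO clone 2, Zcchc8 KO clone 3 and a line with another gene targeted, Btbd7 KO, at 4 libraries each. They were used here to find what was particular to clone 1. All cells were grown in DMEM with 10% fetal bovine serum, no other treatment is given, and total RNA was made into stranded libraries. Each knockout line named a clone is 1 clone, so the loss of Zcchc8 and anything else that sets a single clone apart cannot be told apart from clone 1 alone. Nothing in the labels says that replicates were separate cultures, so p-values measure the spread between these libraries, which may be technical.

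The protein ZCCHC8 holds together NEXT, the nuclear exosome targeting complex, in which the RNA helicase MTR4, encoded by Mtrex, and the RNA-binding protein RBM7 hand short-lived nuclear RNAs to the RNA exosome, a 3′ to 5′ exonuclease. Known NEXT substrates include promoter upstream transcripts (PROMPTs), which start at active promoters and run away from the gene, enhancer RNAs, and 3′-extended small nuclear and small nucleolar RNAs. In cells without NEXT these RNAs are known to pile up.

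Clone 1 libraries held 6833258 to 7683444 counts over genes and wild-type libraries 13876944 to 17771804, so single low genes are less precisely measured in clone 1. Wild-type replicate 1 stood apart. It had a count for 14245 genes, while wild-type replicates 2 to 4 had one for 17442 to 18791, and its chi-square per degree of freedom against them was 38.9 to 78.6, where the other 3 gave 6.51 to 18.2 among themselves. The tables of regulatory features leave this library out, and counts over all genes are therefore given with and without it, as are those of gene lists where a count moved by over 1.5 times. The 12 simple epithelial marker genes were all expressed at a level that passed the count filter, with a summed level of 3829 to 4492 CPM (counts scaled to library size) in clone 1 and 3824 to 5548 in wild type. Single members did differ: 5 of the 12 were lower in clone 1 than in wild type and 2 higher (median log2 fold change 0.11). Fibroblast markers summed to 10.2 to 14.4 CPM in clone 1 against 11.3 to 18.7, endothelial markers to 1.09 to 2.59 against 0.629 to 1.54, and leukocyte markers to 13.5 to 17.6 against 7.58 to 9.67. Most of the leukocyte sum was Cd68, at 5.50 ± 0.70 CPM in wild type and 11.4 ± 2.25 in clone 1 (SD, n = 4), and the defining leukocyte gene Ptprc was at 0 in wild type and 0.179 ± 0.278 in clone 1. Acinar markers of the salivary gland summed to 251 to 264 CPM against 349 to 385, and 8 of the 11 measured did not pass the filter.

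The targeted gene was not lower at the level of its transcript. Zcchc8 (ENSMUSG00000029427.11, GRCm38 chr5:123698294-123721100) stood at 66.5, 60.7, 60.8 and 56.0 CPM in clone 1 and at 63.6, 60.9, 65.5 and 67.8 in wild type. The groups overlapped (log2 fold change -0.08 ± 0.08 SE, adjusted p = 0.468 in edgeR's quasi-likelihood test). Clone 2 had a mean of 23.6 ± 1.44 CPM and clone 3 of 54.5 ± 4.91 (SD, n = 4). Clone 1 was higher than the mean of both by 0.77 ± 0.07 on the log2 scale (adjusted p = 9.13e-09), while its difference of 0.17 ± 0.08 from clone 3 alone did not pass the test (adjusted p = 0.199). A count over the whole gene does not report on the protein or on small edits, so it gives no check of the label here. Among the partners, Rbm7 did not pass the test (-0.09 ± 0.08, adjusted p = 0.433). Mtrex fell from 135, 156, 147 and 142 CPM in wild type to 108, 107, 114 and 108 in clone 1, without overlap (-0.41 ± 0.06, adjusted p = 2.59e-06), and it was also below clones 2 and 3 (-0.24 ± 0.05, adjusted p = 0.00081). Of 13 exosome core subunits tested, 5 fell (38.5%) and 1 rose (7.69%), beside 21.4% and 15.0% of all protein-coding genes. Clone 2 and clone 3 had medians of -0.20 and -0.14 over wild type for these subunits, and clone 1 -0.19. Against clones 2 and 3, 1 subunit was higher in clone 1 and none lower. The member that rose over wild type was Exosc2, a cap subunit encoded on chromosome 2 (0.36 ± 0.12, adjusted p = 0.021). Exosc9, a ring subunit that overlaps Ccna2 on the other strand, was among those that fell (-0.48 ± 0.14, adjusted p = 0.00855). Both lost the call when clone 1 and wild type were fitted alone, and Exosc2 also when either of wild-type replicates 3 and 4 or of clone 1 replicates 3 and 4 was left out.

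Over all genes, 2793 of 15296 tested were higher in clone 1 than in wild type (18.3%) and 2572 were lower (16.8%), at an adjusted p under 0.05. Without wild-type replicate 1 the counts were 2976 and 3073, with 2481 and 2312 genes called both ways. With only clone 1 and wild type in the fit, 1584 genes were higher and 1490 lower. With an absolute log2 fold change over 1 as well, 1323 were higher and 299 lower, a split mostly upward. Without normalization factors by the trimmed mean of M values (TMM), the split was 3115 and 2142. The 11473 protein-coding genes leaned down, with 1717 higher (15.0%) and 2455 lower (21.4%), and a median log2 fold change of -0.03. Against the mean of clones 2 and 3, 1479 genes were higher (9.67%) and 1245 lower (8.14%). Wild-type libraries enter this contrast through the shared estimate of spread, and without wild-type replicate 1 the counts were 1994 and 1937. The same contrast over protein-coding genes called 1350 higher (11.8%) and 1191 lower (10.4%). A gene was counted as apart in clone 1 where it differed in 1 direction from wild type, Btbd7 KO, clone 2 and clone 3, each at an adjusted p under 0.05. This held for 360 genes higher in clone 1 (2.35%) and 320 lower (2.09%), 680 in all, and for 1059 without wild-type replicate 1.

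Genes along chromosome 2 were higher in clone 1 than in every other line. Of 915 protein-coding genes tested there, 428 rose over wild type (46.8%, against 15.0% of all protein-coding genes) and 29 fell. Their median log2 fold change was 0.30, a 1.23-fold higher level. Clone 2, clone 3 and Btbd7 KO had medians of -0.04, -0.01 and 0.00 over wild type for the same genes. Against the mean of clones 2 and 3, 503 rose (55.0%, against 11.8% of all protein-coding genes) and 14 fell, with a median of 0.35, or 1.27-fold. Chromosome 2 holds 7.32% of the genes tested and 231 of the 360 that were apart and higher (64.2%). With chromosome 2 left out, 129 genes were apart and higher and 316 apart and lower. Over wild type the other chromosomes had 2295 genes higher and 2541 lower.

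The shift was read in each library as the median, over the chromosome's protein-coding genes, of log2 CPM minus the gene's mean over all 20 libraries. Chromosome 2 stood at 0.256, 0.261, 0.262 and 0.259 in the clone 1 libraries. It stood at -0.087, -0.027, -0.035 and -0.020 in wild type. All 4 clone 1 libraries lay above all 16 others. The difference from wild type was 0.30 (2-sided exact permutation p = 0.0286, the smallest that 4 against 4 can give, and 0.0635 after adjustment over 20 chromosomes). The difference from the 8 libraries of clones 2 and 3 was 0.33 (exact permutation p = 0.00404, adjusted p = 0.00898). This test was added after the pattern had been seen. The shift ran the length of the chromosome: in each of 10 windows of 20 Mb the median over clones 2 and 3 lay between 0.31 and 0.37, and over wild type between 0.14 and 0.38. The shift also reached other kinds of RNA in the contrast with clones 2 and 3. Of 204 tested chromosome 2 genes of other biotypes, 18 rose over these clones and none fell. On the other chromosomes 111 of 3619 such genes rose and 54 fell. Of 1243 chromosome 2 PROMPT regions 308 rose over clones 2 and 3, beside 671 of 16412 elsewhere. Over wild type, genes of other biotypes rose on all chromosomes, 70 of 204 on chromosome 2 and 1006 of 3619 elsewhere, so that count separates chromosome 2 less. DNA content was not analysed here, and the source of the shift was not tested.

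**Figure D1:**
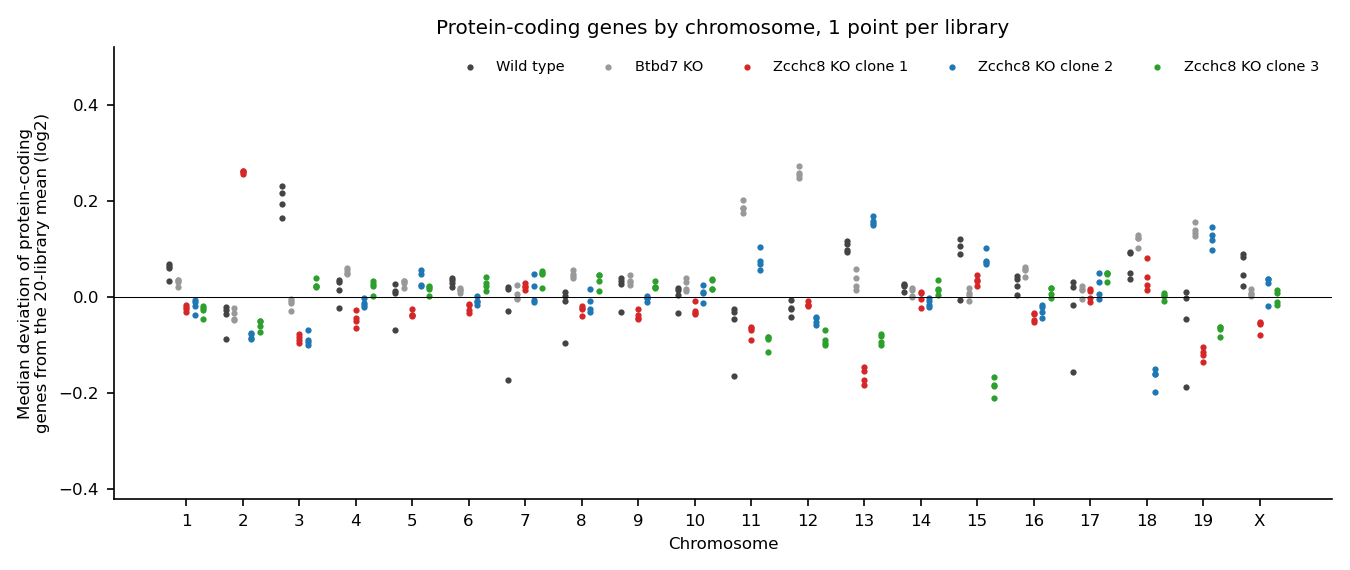
Median log2 deviation of protein-coding genes from their mean over all libraries (vertical axis) for each chromosome (horizontal axis), 1 point per library, coloured by line. The 4 clone 1 points on chromosome 2 sit at 0.256 to 0.262, above the points of all other lines, and those on chromosome 13 sit at -0.146 to -0.182.

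Chromosome 13 moved the other way. Its 475 protein-coding genes had a median of -0.28 over wild type, with 222 lower and 19 higher, and of -0.20 against the mean of clones 2 and 3, with 145 lower and 11 higher. Over wild type clone 3 also had a low median, -0.20, and clone 2 had 0.06. The 4 clone 1 libraries stood at -0.155, -0.173, -0.146 and -0.182, below the lowest library of clone 3 at -0.099. The difference from clones 2 and 3 was -0.20 (exact permutation p = 0.00404, adjusted p = 0.00898), and 38 of the 320 genes apart and lower were encoded there. Mtrex is among the genes of chromosome 13. Chromosome 3 also had a low median over wild type, -0.31, but its median over clones 2 and 3 was -0.04, and clone 2, clone 3 and Btbd7 KO had medians of -0.30, -0.18 and -0.20.

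Several genes expressed in wild-type cells were nearly silent in clone 1 and had reads in clones 2 and 3. Rgl3 (ENSMUSG00000040146.9, chr9:21968711-21989446), a guanine nucleotide exchange factor for Ral, had 2.46, 6.24, 7.57 and 6.30 CPM in wild type and no read in any clone 1 library. It was at least 13.9-fold lower, taking 3 counts per library as the floor (adjusted p = 3.97e-09). Clones 2 and 3 had means of 11.1 and 12.6 CPM. Ppp1r9a, which encodes the actin-binding neurabin-1, had 5.83, 8.58, 7.86 and 11.3 CPM in wild type and 0.132, 0.819, 0.293 and 0.776 in clone 1 (-4.02 ± 0.38, adjusted p = 1.22e-08). The groups did not overlap in Rgl3 or Ppp1r9a. Acpp, prostatic acid phosphatase, had 24.0, 16.9, 20.8 and 22.9 CPM in wild type against 2.37, 1.64, 1.17 and 0.518 (-3.88 ± 0.23, adjusted p = 1.76e-12). Gli3, a transcription factor of the hedgehog pathway, had 8.62, 3.83, 5.95 and 4.49 CPM against 0.264, 0.409, 0.586 and 0 (-4.17 ± 0.42, adjusted p = 2.87e-08).

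Edil3, a secreted integrin ligand, Zbtb7c, a zinc finger protein, and Tspan12, a tetraspanin of Norrin and frizzled signalling, belonged to the same group. Edil3 had 0 to 3 counts in each clone 1 library and 32 to 102 in wild type (-4.22 ± 0.54, adjusted p = 1.11e-06). Zbtb7c changed by -3.23 ± 0.50 (adjusted p = 1.5e-05). Tspan12 changed by -3.19 ± 0.16 (adjusted p = 1.18e-13), and is named because of the region upstream of Gm30270 described further on, after its values had been seen. Rgl3, Edil3, Gli3, Ppp1r9a, Acpp, Zbtb7c and Tspan12 all passed the test against clones 2 and 3 as well, with log2 differences from -3.13 in Tspan12 to -4.70 in Edil3 for those with reads in clone 1. Tnc, tenascin C of the extracellular matrix, was different. It was at 21.7, 28.1, 26.2 and 30.1 CPM in wild type and 1.45, 0.682, 0.146 and 0.388 in clone 1 (-5.27 ± 0.32, adjusted p = 4.76e-12). It was low in clones 2 and 3 too, with means of 0.0953 and 1.84 CPM, and the difference between clone 1 and these clones did not pass the test (0.50 ± 0.51, adjusted p = 0.581).

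Of the 8 protein-coding genes with the largest rises over wild type, 5 also exceeded clones 2 and 3. Rdm1, a DNA repair protein of the RAD52 family whose locus holds the snRNA gene Gm23849, had 6.22, 6.01, 4.78 and 4.43 CPM in wild type and 36.9, 43.1, 35.9 and 32.6 in clone 1 (2.79 ± 0.16, adjusted p = 1.64e-12). Its means in clones 2 and 3 were 17.1 and 15.8 CPM, and clone 1 was above them by 1.17 ± 0.13 (adjusted p = 1.87e-07). Nfasc, the cell adhesion protein neurofascin, rose from 3.24, 2.46, 1.32 and 3.44 CPM to 13.5, 16.6, 17.7 and 15.8 (2.59 ± 0.24, adjusted p = 7.28e-09) and was above clones 2 and 3 by 1.28 ± 0.19 (adjusted p = 1.64e-05). The groups did not overlap in either gene. Syn3, Mpig6b and Gm10762, the last on chromosome 2, rose by 2.60 ± 0.24, 2.56 ± 0.25 and 2.66 ± 0.23 over wild type and exceeded clones 2 and 3 by 0.93, 0.73 and 0.80 (largest adjusted p = 0.00945), a call that Mpig6b lost without clone 1 replicate 1. Syn3 spans Timp3 on the other strand, and Gm10762 overlaps Zc3h6. Msh5, a meiotic mismatch repair homologue (3.37 ± 0.93 CPM in wild type, 24.7 ± 2.26 in clone 1, SD, n = 4), Ssc4d and Gm9958 rose by 2.87 ± 0.18, 2.89 ± 0.37 and 2.47 ± 0.14, and none of the 3 passed the test against clones 2 and 3.

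**Figure D2:**
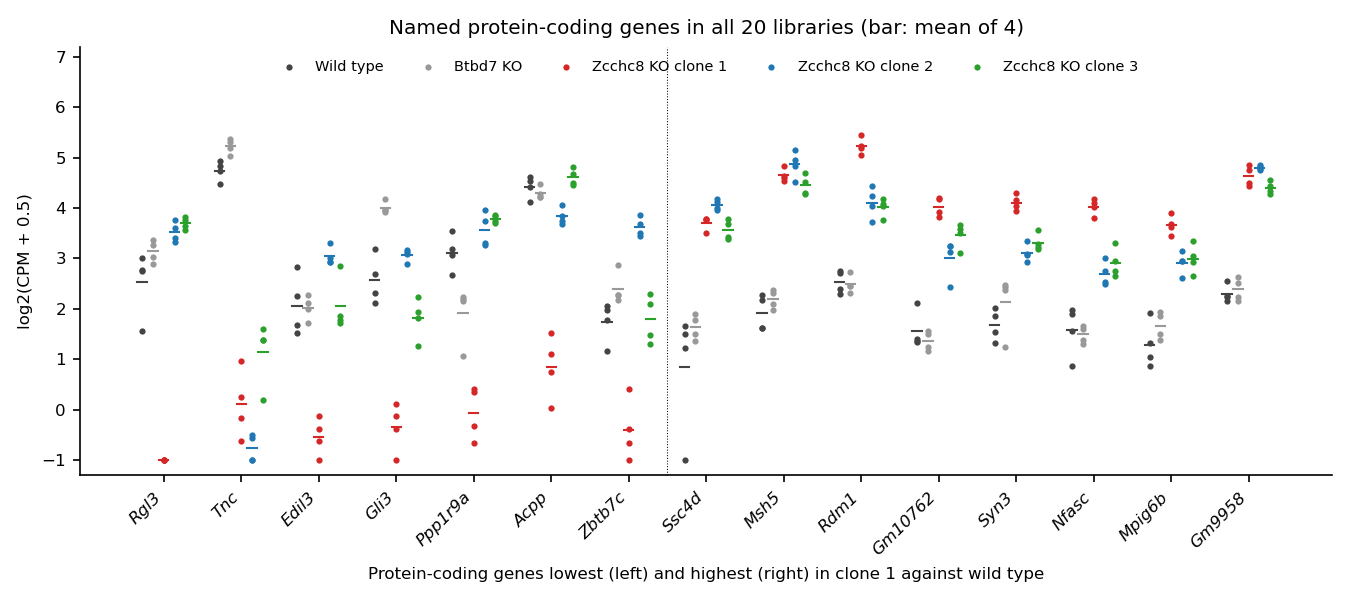
Level of 7 protein-coding genes among those with the lowest log2 fold change over wild type and of the 8 with the highest (horizontal axis), as log2(CPM + 0.5) on the vertical axis, 1 point per library, coloured by line, with a bar at the mean of 4. Rgl3 and Ppp1r9a are lowest in clone 1, Tnc is low in all 3 clones, and the 8 genes on the right are high in all 3.

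Tfpi, tissue factor pathway inhibitor on chromosome 2 (chr2:84432855-84476775), moved in opposite directions in the clones. It had 5.64, 5.38, 5.88 and 8.34 CPM in wild type and 21.6, 20.1, 21.1 and 14.6 in clone 1, without overlap (1.61 ± 0.21, adjusted p = 1.33e-06). Its means were 1.26 CPM in clone 2 and 1.42 in clone 3, which makes the difference from clones 2 and 3 3.87 ± 0.19 (adjusted p = 1.97e-13). B930036N10Rik, an antisense gene that overlaps Alyref2 and holds the snRNA gene Gm24871, rose in all 3 clones and most in clone 1. It had 11.3, 7.38, 8.67 and 8.63 CPM in wild type, 124, 127, 143 and 113 in clone 1, and means of 26.5 and 37.3 in clones 2 and 3. Clone 1 exceeded wild type by 3.82 ± 0.13 (adjusted p = 3.8e-17) and the other clones by 2.02 ± 0.09 (adjusted p = 7.59e-14). The strand setting of the counting is not given in the sources used here, so reads of antisense and overlapping genes may belong to either.

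Stress and protein quality control genes were lower in clone 1. Counts of this and the following gene lists stand beside 15.0% higher and 21.4% lower among all protein-coding genes. Of 28 targets of the integrated stress response, the ATF4 and CHOP programme of amino acid synthesis and transport, 18 fell and 2 rose (median -0.45, against -0.03 over all protein-coding genes). Slc1a4, a neutral amino acid transporter, fell from 36.4, 32.6, 34.7 and 26.1 CPM to 7.38, 13.9, 11.1 and 8.54 (-1.67 ± 0.17, adjusted p = 4.55e-08). Asns, asparagine synthetase, fell from 162, 186, 159 and 146 CPM to 73.3, 91.8, 111 and 92.1 (-0.83 ± 0.10, adjusted p = 7.19e-07). The groups did not overlap in either gene. Chac1, a glutathione-degrading enzyme on chromosome 2, fell while the median of its chromosome rose (-1.04 ± 0.15, adjusted p = 4.77e-06). Slc7a5, which carries large neutral amino acids, Wars, the tryptophan tRNA synthetase, and the secreted factor Fgf21 fell by 0.97, 0.90 and 1.30 on the log2 scale (largest adjusted p = 0.0301). Fgf21 lost the call at equal depth and when wild-type replicate 3 or any single clone 1 library was left out. Clone 2 had a list median of -0.64 and clone 3 of -0.18 over the same wild-type libraries. Against clones 2 and 3 together, 5 members were lower and 3 higher.

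Of 20 unfolded protein response genes, chaperones and transducers of the endoplasmic reticulum, 9 fell and none rose over wild type (median -0.20), and 9 fell and 2 rose against clones 2 and 3 (median -0.17). Xbp1, the transcription factor of this response, stood at 42.7, 43.8, 46.2 and 41.4 CPM in wild type and 28.7, 33.7, 28.4 and 27.8 in clone 1, without overlap (-0.55 ± 0.09, adjusted p = 1.82e-05). It was also below clones 2 and 3 (-0.43 ± 0.08, adjusted p = 0.000221). Herpud1, a factor of protein degradation at the endoplasmic reticulum, and Pdia6, a disulfide isomerase, fell by 0.79 ± 0.11 and 0.51 ± 0.07 over wild type and by 0.37 and 0.40 against clones 2 and 3 (largest adjusted p = 0.00676). Hspa5, the chaperone BiP, fell by 0.59 ± 0.07 over wild type (adjusted p = 1.54e-07), and its difference of -0.14 from clones 2 and 3 did not pass the test (adjusted p = 0.096). It is encoded on chromosome 2. Proteasome subunits leaned the same way, with 18 of 31 lower and none higher (median -0.25). Without wild-type replicate 1, 24 were lower. Clone 2 and clone 3 had medians of -0.18 and -0.24 over wild type for these subunits. Against clones 2 and 3, 5 subunits were lower in clone 1 and 3 higher (median -0.06). Psmd1, a base subunit of the regulatory particle, was at 161, 189, 185 and 188 CPM in wild type and 123, 124, 127 and 123 in clone 1 (-0.54 ± 0.06, adjusted p = 5.81e-08). Psma5 and Psmd3 fell by 0.59 and 0.50 (largest adjusted p = 7.73e-05).

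Keratins were mostly lower in clone 1. Of the 9 keratins tested, 8 were lower and none was higher (median -0.46), with clone 3 at a median of -0.62 and clone 2 at -0.10. In bulk RNA, fewer cells of a type and less RNA per cell cannot be told apart. Krt80 fell from 290, 365, 348 and 317 CPM to 207, 225, 241 and 222, without overlap (-0.56 ± 0.06, adjusted p = 2.03e-07). Krt7 had 647, 1456, 1271 and 1122 CPM in wild type and 765, 826, 764 and 611 in clone 1, which overlapped through wild-type replicate 1 (-0.60 ± 0.14, adjusted p = 0.00146). Krt14, a basal cell keratin, fell by 0.74 ± 0.11 (adjusted p = 6.34e-06) and was below clones 2 and 3 as well (-0.36 ± 0.09, adjusted p = 0.00749), a call lost without clone 1 replicate 3 or 4. Myoepithelial and basal markers, Krt14 among them, summed to 170 to 219 CPM in clone 1 and 257 to 398 in wild type, with 2 of the 4 tested lower and none higher, medians of -0.72 over wild type and -1.02 against clones 2 and 3, and Cnn1 at 0 in both groups. Duct markers of the salivary gland, Krt7 among them, summed to 989 to 1237 CPM against 1034 to 1923, with 2 of 6 lower and 1 higher (median -0.30). The part of other cell types in these changes was not tested. Of 17 interstitial matrix genes, 8 fell and 3 rose (median -0.56), and without wild-type replicate 1 10 fell and 5 rose. Spp1, the secreted matricellular protein osteopontin, fell furthest below the other clones. It had 90.8, 110, 108 and 115 CPM in wild type and 16.5, 17.6, 16.7 and 18.6 in clone 1 (-2.61 ± 0.09, adjusted p = 8.57e-17), and its means in clones 2 and 3 were 140 and 74.6.

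The 17 basement membrane genes split evenly, 6 higher and 6 lower. Col18a1, the type XVIII collagen chain, fell from 23.9, 38.7, 42.2 and 33.0 CPM to 9.49, 8.87, 8.50 and 10.9 (-1.86 ± 0.17, adjusted p = 4.64e-09), and Nid1, the laminin linker nidogen 1, rose from 0 to 0.467 CPM to between 2.49 and 4.14 (3.74 ± 0.60, adjusted p = 2.34e-05). Both differed from clones 2 and 3 in the same direction. Of 16 matrix proteases and inhibitors, 8 fell and 1 rose, with Serpinb2 down by 2.04 ± 0.26 (adjusted p = 1.48e-06) and Timp3 by 0.89 ± 0.12 (adjusted p = 3.89e-06). In the protease list 50% fell, and the median was -0.18, with clone 2 at -0.30 and clone 3 at 0.05. Of 30 actin cytoskeleton genes, 15 fell (50%) and 2 rose (median -0.19), with clone 2 at -0.19 and clone 3 at -0.11. Against clones 2 and 3, 4 actin genes were lower in clone 1 and 2 higher. Of 8 factors and markers of mesenchymal transition, 4 fell and 2 rose: Zeb2 and Zeb1 changed by -1.28 ± 0.30 and -1.06 ± 0.27, and Snai1, a repressor of the same class, by 1.42 ± 0.30 (largest adjusted p = 0.00353). Without wild-type replicate 1 Zeb1 changed by -0.65, and 3 members of the list fell. Zeb2 and Snai1 both lie on chromosome 2. Among WNT genes 6 of 24 fell and 3 rose, 25% and 12.5%, shares near those of all protein-coding genes. The ligand Wnt5a was at 37.5, 32.6, 31.6 and 30.3 CPM in wild type and 16.2, 13.8, 13.0 and 14.1 in clone 1 (-1.21 ± 0.12, adjusted p = 1.84e-08). Tcf7l2, a transcription factor that binds β-catenin, rose by 1.24 ± 0.12 (adjusted p = 7.28e-09). Both also passed the test against clones 2 and 3, by -1.003 and 0.48.

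Glycolytic and hypoxia-response genes formed a group that rose. Of 23 gene identifiers tested, 13 were higher in clone 1 and 1 lower (median 0.28). Without wild-type replicate 1, 15 were higher and 2 lower. Clone 2 and clone 3 had medians of 0.22 and 0.06 over wild type for this list. Against clones 2 and 3, 9 members were higher in clone 1 and 1 lower. Pdk1, the kinase that restrains pyruvate dehydrogenase, had 85.4, 98.0, 94.3 and 84.9 CPM in wild type and 184, 145, 164 and 164 in clone 1, without overlap (0.86 ± 0.09, adjusted p = 8.68e-08). It is the only member on chromosome 2. Leaving it out, 12 of 22 rose. Pfkp, the platelet phosphofructokinase on chromosome 13, was the member that fell (-1.39 ± 0.16, adjusted p = 1.74e-07). Of 28 immediate early and AP-1 genes, 11 rose and 3 fell (median 0.17): Egr1 had 3.24, 6.64, 5.29 and 10.4 CPM in wild type and 27.7, 20.6, 20.4 and 20.2 in clone 1 (1.78 ± 0.23, adjusted p = 1.08e-06), and Fos changed by 1.91 ± 0.53 (adjusted p = 0.00657), a call lost when clone 1 and wild type were fitted alone. Neither passed the test against clones 2 and 3. Of 26 lysosomal genes 10 rose and 2 fell (median 0.13), and Tpp1, Ctsa and Npc2 rose by 0.80, 0.68 and 0.48 over wild type and by 0.37, 0.32 and 0.42 over clones 2 and 3 (largest adjusted p = 0.00606).

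**Figure D3:**
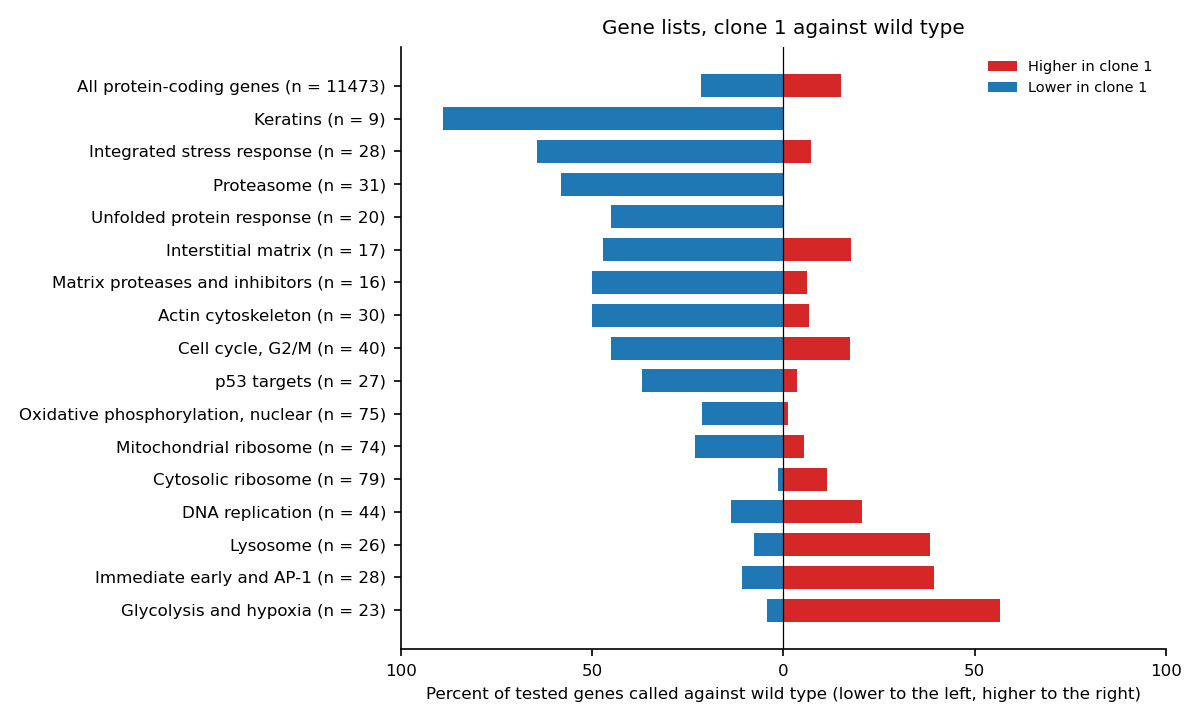
Percent of the tested members of each gene list (rows, with the number tested) that were higher (red, to the right) or lower (blue, to the left) in clone 1 than in wild type. The bars of the integrated stress response (18 of 28 lower) and the proteasome (18 of 31 lower) run mostly to the left and that of glycolysis and hypoxia (13 of 23 higher) mostly to the right, and all protein-coding genes stand at 15.0% higher and 21.4% lower.

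Mitotic genes divided by chromosome. Of 40 tested, 7 rose and 18 fell (median -0.16). The 7 that rose, among them Cdc25b, the phosphatase that activates CDK1, and Ube2c, a ubiquitin-conjugating enzyme of the anaphase-promoting complex, were among the 8 members on chromosome 2. On the other chromosomes 18 of 32 fell and none rose. Ube2c had 176, 189, 189 and 182 CPM in wild type and 254, 249, 267 and 253 in clone 1 (0.47 ± 0.05, adjusted p = 9.14e-08), and Cdc25b rose by 0.44 ± 0.06 (adjusted p = 1.5e-06). Ccna2, cyclin A2, fell from 650, 497, 534 and 566 CPM to 419, 406, 412 and 406 (-0.45 ± 0.07, adjusted p = 7.41e-06). Of 44 replication genes 9 rose and 6 fell, and all 4 on chromosome 2 rose, including Pcna, the polymerase clamp (128, 186, 164 and 165 CPM in wild type, 276, 244, 282 and 252 in clone 1), and Mcm10. Pcna rose by 0.71 ± 0.09 and Mcm10 by 0.53 ± 0.10 (largest adjusted p = 0.000124). Off chromosome 2, 5 of 40 replication genes rose and 6 fell, beside 1289 and 2426 of 10558 protein-coding genes. Of 27 p53 targets 10 fell and 1 rose: Plk2 fell by 1.27 ± 0.11 and Ccng1 by 0.77 ± 0.08 (largest adjusted p = 4.25e-08). Clones 2 and 3 had medians of -0.31 and -0.30 for this list, and clone 1 -0.14.

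Few ribosomal protein genes changed over wild type. Of 79 cytosolic ribosomal proteins 9 rose and 1 fell over wild type, and 16 rose and none fell over clones 2 and 3. Rpl7a and Rps21, both on chromosome 2, rose by 0.49 ± 0.10 and 0.53 ± 0.10 (largest adjusted p = 0.00072). Without wild-type replicate 1, 8 rose and 7 fell. Of 75 nuclear-encoded respiratory chain subunits 16 fell and 1 rose. The share that fell, 21.3%, was near the 21.4% of all protein-coding genes. Without wild-type replicate 1, 30 fell and none rose, 40.0% beside 25.6% of all protein-coding genes. Sdha, a subunit of succinate dehydrogenase encoded on chromosome 13, fell from 172, 202, 200 and 191 CPM to 136, 145, 129 and 139 (-0.48 ± 0.06, adjusted p = 7.92e-07). Of 74 mitochondrial ribosomal proteins 17 fell and 4 rose (28 and 3 without wild-type replicate 1). Those that fell were 23%, near the 21.4% of all protein-coding genes, and 37.8% beside 25.6% without that library. Mrpl17, the member with the largest change, rose from 41.7, 38.3, 37.5 and 43.3 CPM to 97.1, 115, 104 and 111 (1.41 ± 0.07, adjusted p = 1.18e-13).

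Several classes of non-coding gene rose more often than all genes. The share higher in clone 1 than in wild type was 75.5% of 102 bidirectional-promoter lncRNAs (77 genes, none lower), 57.4% of 465 antisense genes, 49.6% of 258 processed transcripts and 47.8% of 456 lincRNAs, beside 18.3% of all genes. Other classes were near or under that share: 194 of 1021 TEC genes, a class that awaits experimental evidence, 11.9% of 160 sense intronic genes and 3.33% of 870 processed pseudogenes were higher. Antisense genes with 1 exon were higher in 74.7% of 99 cases and those with more exons in 52.7% of 366, while in lincRNAs the shares were 44.3% of 88 and 48.6% of 368. Of the 465 antisense genes, 14 were higher and 7 lower in clone 1 than in the mean of clones 2 and 3. The highest riser by the naming rule was 2900060B14Rik, an antisense gene in Clasp1 that holds the snRNA gene Gm22710. It had 0, 1.49, 1.03 and 0.525 CPM in wild type and 32.6, 28.4, 28.4 and 21.2 in clone 1 (5.15 ± 0.36, adjusted p = 3.66e-11). 4930402H05Rik, annotated as TEC, rose by 4.52 ± 0.41 (adjusted p = 5.52e-09). Host genes of snoRNAs included Snhg15, which rose from 17.5, 18.3, 19.1 and 21.3 CPM to 65.5, 64.7, 66.5 and 58.1 (1.74 ± 0.08, adjusted p = 3.19e-14), and Snhg20, which rose by 2.17 ± 0.15 (adjusted p = 4.23e-11), 4 higher and 1 lower of 12 in all.

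Among the biotypes with 50 or more tested genes, clone 1 was above clones 2 and 3 most often in small nuclear RNA (snRNA) genes. Of 63 snRNA genes tested, 27 were higher than in wild type and none lower, and 19 were higher than in clones 2 and 3 and none lower (30.2%, against 9.67% of all genes). Of 123 snoRNA genes 56 were higher and 2 lower than in wild type. Against clones 2 and 3, 15 were higher (12.2%, near the 9.67% of all genes) and none lower. Only 2 of the tested snRNA genes and 7 of the snoRNA genes lie on chromosome 2. Gm22265, an snRNA gene within Hhat, had 14.8, 2.98, 3.89 and 4.02 CPM in wild type and 34.4, 37.8, 33.5 and 37.4 in clone 1 (2.48 ± 0.31, adjusted p = 8.29e-07), and means of 8.39 and 14.4 in clones 2 and 3. Gm24019, another snRNA gene, had 2.40, 5.49, 2.57 and 3.79 CPM against 18.9, 14.2, 15.2 and 8.80 (1.99 ± 0.28, adjusted p = 4.33e-06). The groups did not overlap in either. Gm23444, also annotated as an snRNA, rose by 5.04 ± 0.39 (adjusted p = 2.71e-10). Many snRNA and snoRNA genes have near-identical copies, and how reads that match several places were counted is not given in the sources used here, so the assignment to single copies is uncertain.

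Snora31, a box H/ACA snoRNA in Tpt1, had 14.3, 12.2, 13.7 and 12.4 CPM in wild type and 162, 156, 149 and 118 in clone 1 (3.48 ± 0.15, adjusted p = 5.78e-15). Its means in clones 2 and 3 were 54.0 and 57.6, so clone 1 exceeded them by 1.39 ± 0.11 (adjusted p = 1.67e-09). Its host Tpt1 rose by 0.47 ± 0.08 over wild type (adjusted p = 5.27e-05) and by 0.67 over clones 2 and 3, less than the snoRNA. Snord11, in Nop58, rose by 4.59 ± 0.40 (adjusted p = 2.46e-09), while Nop58 changed by -0.16 (adjusted p = 0.222). The non-coding genes that fell furthest were Gm4813, a processed pseudogene on chromosome 13 (-1.94 ± 0.32), Zfp862-ps (-1.13 ± 0.24), Gm26397, a snoRNA gene within Tomm20 (-1.12 ± 0.15), and Gm13127, a processed pseudogene (-1.11 ± 0.32, adjusted p = 0.00899). Gm13127 rested on wild-type replicate 1, at 19.9 CPM, with replicates 2 to 4 at 6.64 to 7.35, and lost its call without it (adjusted p = 0.0625). Gm26397 was lower still in clones 2 and 3 and clone 1 was above them by 0.71 ± 0.13 (adjusted p = 0.000329).

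PROMPT regions, counted by the authors upstream of each gene, rose broadly. The exact extent of each region is not given in the sources used here. Of 17655 tested, 6923 were higher in clone 1 than in wild-type replicates 2 to 4 (39.2%) and 678 lower (3.84%), with scaling by the gene table. Scaled within its own table, a shift of -0.47 in median log2 fold change, the split was 4957 and 3656. Of the 9320 regions of protein-coding genes 5346 rose (57.4%). Against clones 2 and 3, 979 regions were higher (5.55%) and 281 lower (1.59%), or 622 and 501 with scaling within the table. On chromosome 2 the share higher than clones 2 and 3 was 24.8% and on the other chromosomes 4.09%, with median log2 differences of 0.47 and 0.05. The median over wild type was 0.90 on chromosome 2 and 0.45 elsewhere.

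The regions at the ends of this range were those of Cd44, a hyaluronan receptor, and Rfesd, which rose most over wild type, Eapp, an E2F-associated phosphoprotein, which rose most over clones 2 and 3, and Gm30270, an antisense gene, which fell most in both contrasts. The RefSeq promoter windows of 3 of them (GRCm38.p6, 250 bases before to 50 after the start, 5′ to 3′ along the gene) are printed because transcription upstream of these starts is what the table measures. CG dinucleotides are in capitals. Cd44 is at chr2:102901616-102901915 on the minus strand, Gm30270 at chr6:21852387-21852686 on the plus strand and Eapp at chr12:54695845-54696144 on the minus strand, with 6, 8 and 20 CG dinucleotides.
Cd44: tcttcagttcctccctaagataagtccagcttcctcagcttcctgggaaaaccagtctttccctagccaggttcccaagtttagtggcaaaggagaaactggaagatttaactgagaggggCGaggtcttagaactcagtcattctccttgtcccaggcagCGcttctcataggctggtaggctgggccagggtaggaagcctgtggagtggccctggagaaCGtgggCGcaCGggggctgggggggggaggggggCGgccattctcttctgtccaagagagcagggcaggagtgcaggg
Gm30270: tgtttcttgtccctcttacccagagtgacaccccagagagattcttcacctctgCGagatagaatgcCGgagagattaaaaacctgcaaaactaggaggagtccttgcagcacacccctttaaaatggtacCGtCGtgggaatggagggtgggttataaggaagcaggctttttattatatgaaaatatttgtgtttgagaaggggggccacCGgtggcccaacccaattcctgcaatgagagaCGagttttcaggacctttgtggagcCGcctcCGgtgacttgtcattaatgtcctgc
Eapp: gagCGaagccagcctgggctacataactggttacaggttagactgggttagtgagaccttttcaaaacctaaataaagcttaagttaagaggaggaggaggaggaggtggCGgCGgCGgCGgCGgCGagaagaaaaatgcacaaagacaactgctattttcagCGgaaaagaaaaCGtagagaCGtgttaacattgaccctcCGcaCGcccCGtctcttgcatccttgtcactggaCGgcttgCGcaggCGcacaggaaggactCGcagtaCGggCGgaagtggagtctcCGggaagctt

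The region upstream of Cd44 was nearly silent in wild type, at 0, 0 and 0.411 CPM, and stood at 13.0, 15.8, 14.9 and 14.2 in clone 1 (6.53 ± 0.43, adjusted p = 2.35e-20). The fitted size rests on the 7 counts of wild-type replicate 4, and without that library it was 10.40, a value that depends on the prior count. It was also above clones 2 and 3 (0.98 ± 0.20, adjusted p = 0.000556), while the Cd44 gene changed by 0.07 over wild type (adjusted p = 0.251) and by -0.02 over those clones. An snRNA gene, Gm23731, overlaps the Cd44 gene on the other strand. The Rfesd region rose from 0.231, 0.222 and 0 CPM to 11.8, 13.3, 7.88 and 7.49 (6.01 ± 0.45, adjusted p = 3.21e-18), with a difference of 0.11 ± 0.21 from clones 2 and 3 that did not pass the test (adjusted p = 0.85), and the Rfesd gene itself rose by 0.91 (adjusted p = 7.68e-06). The groups did not overlap in either region. The Eapp region stood at 11.5, 11.2 and 8.51 CPM in wild type and 95.9, 95.3, 99.6 and 96.1 in clone 1 (3.22 ± 0.13, adjusted p = 2.02e-30), and was above clones 2 and 3 by 1.87 ± 0.09 (adjusted p = 2.83e-25). Upstream of Eapp, at 885 bases and on the other strand, lies the snRNA gene Gm22513, which rose from 1.88, 1.49, 1.91 and 1.81 CPM to 11.1, 13.1, 13.0 and 12.3 (2.80 ± 0.24, adjusted p = 1.34e-09). Its gene Eapp changed by 0.18 (adjusted p = 0.428). The Gm30270 region fell from 6.07, 5.26 and 7.98 CPM to 0.789, 0, 1.02 and 0.904 (-3.23 ± 0.35, adjusted p = 9.12e-12). What lies upstream of Gm30270 is the body of Tspan12 on the other strand, the gene that was 3.19 lower on the log2 scale in clone 1.

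**Figure D4:**
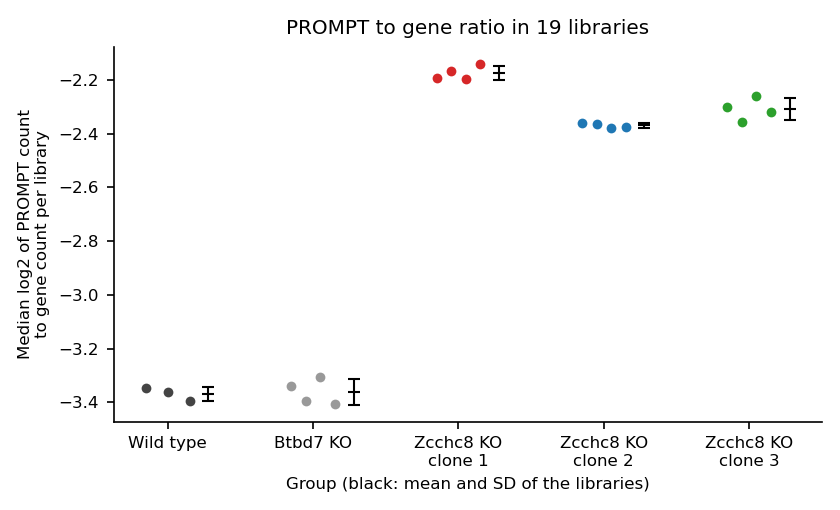
Median over 11392 genes of the log2 ratio of PROMPT counts to gene counts (vertical axis), 1 point per library, by line. Clone 1 lies at -2.20 to -2.14, wild type at -3.40 to -3.35, and all clone 1 points are above those of clones 2 and 3.

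A ratio of PROMPT to gene counts within each library needs no scaling between libraries. Its median over 11392 genes, on the log2 scale, was -2.20, -2.17, -2.20 and -2.14 in clone 1 and -3.35, -3.36 and -3.40 in wild type, without overlap. The difference was 1.19, or 2.29-fold (2-sided exact permutation p = 0.057, the smallest that 4 against 3 can give). Over genes with a mean of at least 50 counts in both tables it was 0.66. Clones 2 and 3 had means of -2.37 ± 0.01 and -2.31 ± 0.04 (SD, n = 4), and Btbd7 KO -3.36 ± 0.05. Clone 1 was above the 8 libraries of clones 2 and 3 by 0.16, or 1.12-fold (exact permutation p = 0.00404). The genes downstream of risen PROMPTs were split: of 5822 risen regions whose gene was also tested, 1268 genes rose, 1163 fell and 3391 were not called. For the 5223 regions not called, 931 genes rose and 602 fell. Promoter windows of protein-coding genes with a risen PROMPT held a median of 23 CG dinucleotides (3384 with a RefSeq entry), against 19 for those not called (2331). The letters GGGCGG, on either strand, were in 70.4% of the former and 59.0% of the latter, and in 35.2% of all 22862 windows. TATAAA was in 5.73%, 8.45% and 14.8%, and CCAAT in 38.6%, 41.1% and 38.2%. Regions with more counts are called more readily, and their part in this was not tested.

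The 6 classes of annotated regulatory feature moved in the same direction, less widely than PROMPTs. In promoter flanking regions 1393 of 14137 were higher than in wild type (9.85%) and 418 lower (2.96%). In promoters 583 of 4642 were higher (12.6%) and 170 lower (3.66%), in enhancers 666 of 9527 higher (6.99%) and 214 lower (2.25%), and in CTCF sites 661 of 13122 higher (5.04%) and 163 lower (1.24%). In open chromatin regions 383 of 8051 were higher (4.76%) and 115 lower (1.43%), and in transcription factor binding sites 131 of 2494 were higher (5.25%) and 39 lower (1.56%). Higher regions outnumbered lower ones in every class. With scaling within each table the splits were 1189 and 647 in promoter flanking regions, 467 and 336 in promoters, 589 and 296 in CTCF sites and 335 and 172 in open chromatin regions. CTCF sites and promoters were shifted by -0.11 and -0.13 on the log2 scale by that choice.

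Against clones 2 and 3 fewer regulatory features differed. In promoter flanking regions 319 were higher (2.26%) and 245 lower (1.73%), and in promoters 141 higher (3.04%) and 85 lower (1.83%). In enhancers 120 were higher (1.26%) and 91 lower (0.955%), and in CTCF sites 75 higher (0.572%) and 45 lower (0.343%). In open chromatin regions 42 were higher (0.522%) and 25 lower (0.311%), and in transcription factor binding sites 20 higher (0.802%) and 10 lower (0.401%). The median difference from clones 2 and 3 was slightly negative in all 6 classes, from -0.04 to -0.01, while that of PROMPT regions was 0.08. Reads in these features may also belong to the genes they lie in, and no position of a feature is given in the files, so chromosome 2 could not be set apart in them.

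**Figure D5:**
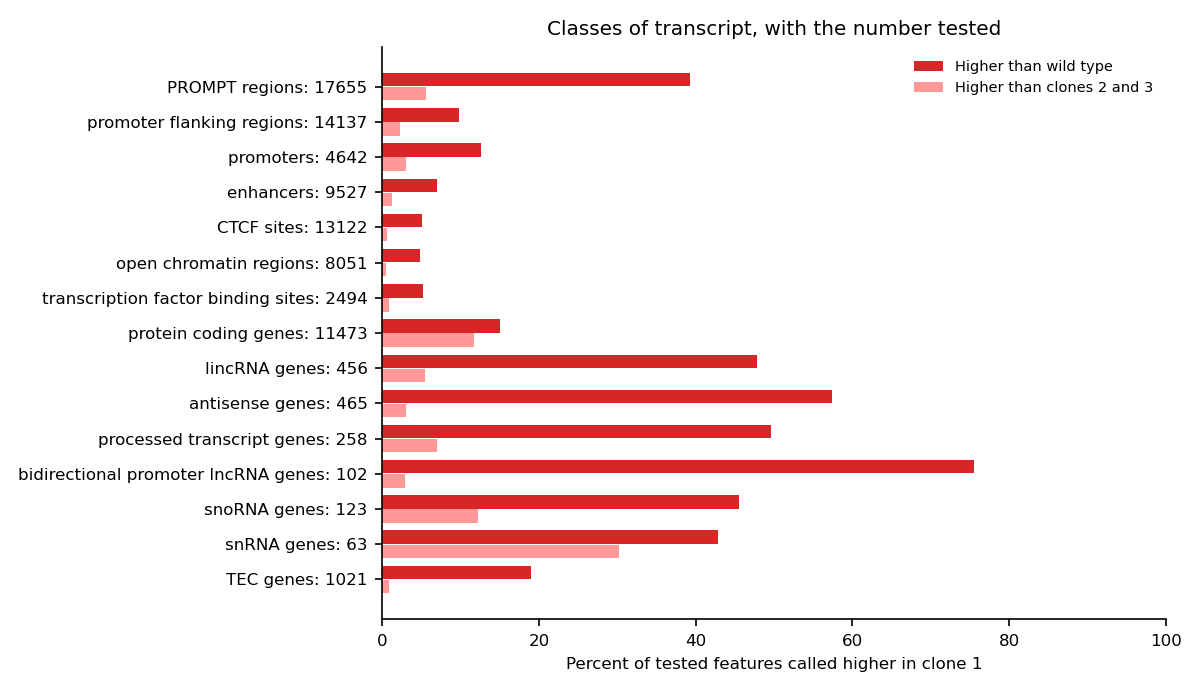
Percent of tested features called higher in clone 1 than in wild type (dark bars) and than the mean of clones 2 and 3 (light bars), for PROMPT regions, the 6 classes of regulatory feature and 8 biotypes of gene, with the number tested. PROMPT regions reach 39.2% over wild type and the regulatory features 12.6% or less, and among the light bars snRNA genes are highest at 30.2%.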

How the data were processed

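The deposited raw read counts of genes, PROMPT regions and 6 classes of regulatory feature were analysed. STAR 2.7.3a and FastQC are named in the submitters' processing notes, while the counter, genome build, annotation, strand setting and rule for reads shared by features are not given in the sources used here. Libraries were made with a stranded total RNA kit, per the labels' protocols. The authors' deposited counts are whole numbers with 1 column per library and unequal totals, and were taken as not normalized. Of 55471 gene identifiers 55230 matched GENCODE M21 (GRCm38), the source of names, biotypes and coordinates, which were read from that annotation and not from the files. Promoter windows came from RefSeq (GRCm38.p6).

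Each table was fitted once over 5 groups with edgeR 4.0.16 (quasi-likelihood test, filterByExpr, TMM; R 4.3.3), with Benjamini-Hochberg adjustment over all features tested and calls at an adjusted p under 0.05. Feature tables, which hold wild-type replicates 2 to 4 (19 libraries), took library sizes and TMM factors from the gene table. CPM are counts scaled to 1e+06 per TMM-scaled library, and their logs have 0.5 added. Chromosome medians and PROMPT ratios were compared over libraries by exact permutation (scipy 1.17.1). The fits were tested on simulated data. Comparisons share libraries, so values are set side by side. The number of libraries and the depth of clone 1 limit the precision of low features.

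Named were Zcchc8, Rbm7 and Mtrex, the genes with the highest and lowest fold changes (8 protein-coding and 4 other genes in each direction, mean of at least 50 counts), the 6 highest and 6 lowest genes apart in clone 1, and the largest changes in PROMPT regions and gene lists. The text gives a part of the list members so chosen, and 1 gene that the rule names is not reported here. The other regulatory features carry identifiers without positions and are given as counts. The members and lists were chosen with earlier results of these data known. Alternatives were DESeq2 1.42.0, no filter, no TMM, scaling within a table, equal depth, a replicate block, fits of 2 groups only, a fold threshold, leaving out each library, and, added after seeing the data, leaving out chromosome 2 and each library of clones 2 and 3. The labels do not say whether a replicate number marks a shared culture or day. Same-numbered libraries did not deviate together (correlations of -0.06 to 0.09), so the numbers were not used as pairs.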

Additional observations from a re-analysis of the deposited data

Results flagged for a closer look

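Of 205 groups of 4 libraries examined (the named genes and the chromosome medians in wild type and clone 1), 16 had a library far from the other 3 by Dixon's ratio at 95%, a rule that chance meets in about 5% of groups. Wild-type replicate 1 gave 7 of the 16. In CPM it stood at 3.82 for Gm10762, 19.9 for Gm13127 and 14.8 for Gm22265, above the other wild-type libraries, and at 161 for Psmd1 and 54.0 for Npc2, below them. Its median deviations were -0.10 on chromosome 8 and -0.16 on chromosome 11. Wild-type replicate 4 stood at 8.34 CPM for Tfpi, above the others. In clone 1, replicate 1 was the highest at 27.7 CPM for Egr1, replicate 2 at 33.7 for Xbp1 and replicate 3 at 114 for Mtrex and 24.9 for Snord11, and replicate 4 was the lowest at 10.9 for Ssc4d and 71.7 for Psmd3. Replicate 3 had a deviation of -0.0251 on chromosome 5 and replicate 4 of -0.0780 on chromosome X. Gm13127 was the named gene among these whose call over wild type ended without the library that stood apart.

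Of 84 named features, 57 genes and 3 PROMPT regions differed between clone 1 and the mean of clones 2 and 3. The call was made by edgeR's quasi-likelihood test of the difference at an adjusted p under 0.05. Over all genes 9.67% were higher and 8.14% lower in this contrast. A part of the named features was chosen for a difference from these clones, so their number is no estimate for other genes. The log2 differences of the 31 genes higher in clone 1 were, from the largest, Tfpi 3.87, Nid1 2.73, B930036N10Rik 2.02, Gm22265 1.70, Gm24019 1.504, Snora31 1.39, Gm22513 1.39, Nfasc 1.28, 2900060B14Rik 1.18, Rdm1 1.17, Snai1 1.05, Syn3 0.93, Gm23444 0.89, Gm10762 0.80, Zcchc8 0.77, Mpig6b 0.73, Gm26397 0.71, Ube2c 0.62, Rpl7a 0.55, Pcna 0.53, Pdk1 0.52, Cdc25b 0.50, Exosc2 0.49, Tcf7l2 0.48, Npc2 0.42, Rps21 0.38, Tpp1 0.37, Snhg20 0.36, Mcm10 0.35, Ctsa 0.32 and Mrpl17 0.29. Those of the 26 genes lower in clone 1 were Rgl3 -10.16, Edil3 -4.70, Ppp1r9a -4.59, Zbtb7c -4.28, Gli3 -3.96, Acpp -3.67, Spp1 -2.56, Gm4813 -2.28, Zeb2 -1.85, Col18a1 -1.49, Pfkp -1.34, Wnt5a -1.003, Zfp862-ps -0.96, Slc1a4 -0.86, Plk2 -0.68, Wars -0.55, Slc7a5 -0.52, Xbp1 -0.43, Psmd3 -0.41, Pdia6 -0.40, Chac1 -0.38, Sdha -0.37, Herpud1 -0.37, Krt14 -0.36, Mtrex -0.24 and Psmd1 -0.22. Chac1, Krt14, Mpig6b, Gm23444 and Snhg20 lost this call under at least 1 alternative. The fitted value of Rgl3, which had no read in clone 1, depends on the prior count and is no measure of size. The 3 PROMPT regions were those of Eapp (1.87), Cd44 (0.98) and Gm30270 (-3.34). The ratio of PROMPT to gene counts differed by 0.16.

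Of 20 chromosomes, 12 had a median deviation that differed between clone 1 and clones 2 and 3 by exact permutation after adjustment. The test pools the libraries of clones 2 and 3, so it measures the spread between libraries and not between clones. The differences were 0.33 for chromosome 2, 0.12 for chromosome 18 and 0.0537 for chromosome 12. They were -0.20 for chromosome 13, -0.15 for chromosome 19, -0.0704 for X, -0.0612 for chromosome 5, -0.0506 for chromosome 4, -0.0491 for chromosome 9, -0.0438 for chromosome 10, -0.0330 for chromosome 16 and -0.0321 for chromosome 6. On chromosome 18 the mean deviation was -0.17 in clone 2 and 0.00 in clone 3, beside 0.04 in clone 1. On chromosomes 13 and 19 clone 2 stood at 0.16 and 0.12, clone 3 at -0.09 and -0.07 and clone 1 at -0.16 and -0.12, so that clone 3 lay closer to clone 1 than clone 2 did on all 3.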

How the results depend on the processing

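Over wild type, 82 of 84 named features were called, and of 1256 values under the alternatives 1241 kept direction and call, 15 lost the call (in Gm13127, Fgf21, Fos, Exosc2 and Exosc9) and none reversed. Against clones 2 and 3, of 1844 values 1797 kept both, 28 lost the call and 19 gained one. Apart from Zcchc8, Rbm7 and Mtrex, the rule named features from calls in these same fits. The number called was therefore largely set by that choice, and these values describe the named features and not all calls. With clone 1 and wild type fitted alone, 3074 genes were called in place of 5365, 481 CTCF sites in place of 824, 295 regions of open chromatin in place of 498 and 112 factor binding sites in place of 170. With an absolute log2 fold change over 1 as well, 1622 genes and 471 promoters were called over wild type. Against clones 2 and 3 that threshold left 327 genes, 287 PROMPTs, 77 promoters and 198 regions flanking them, 92 enhancers, 57 CTCF sites, 8 factor binding sites and 26 regions of open chromatin. Genes apart in clone 1 numbered 680, and 1059 in the other deposited gene table or without wild-type replicate 1, 89 with the fold threshold and 445 without chromosome 2. DESeq2 called 114 regions of open chromatin against clones 2 and 3 (67 in edgeR), and without the count filter 12 factor binding sites were called (30 with it). Leaving out 1 library at a time gave 516 to 1059 genes apart, and against clones 2 and 3 366 to 665 regions flanking promoters, 131 to 240 enhancers, 62 to 150 CTCF sites, 29 to 91 regions of open chromatin and 15 to 41 factor binding sites. In these 5 classes the lowest count came without clone 1 replicate 3, except that of factor binding sites, which came without clone 1 replicate 1, and the highest without wild-type replicate 4. The PROMPT to gene ratio exceeded wild type by 0.66, and clones 2 and 3 by 0.12, over genes with a mean of at least 50 counts in both tables, and wild type by 1.16 without chromosome 2. The cause was not tested, except that the fold threshold and the removal of a chromosome call fewer features by construction. Leaving out a library raised some counts and lowered others. The replicate block gave 5348 genes over wild type and 2669 against clones 2 and 3 and moved no count of calls by 1.5 times. Depth limits low features, since each clone 1 library has fewer counts than each wild-type library.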

Other observations

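Further gene lists are set beside 15.0% higher and 21.4% lower than wild type among all protein-coding genes. The share lower was above that in EGF and FGF genes (39.1%), NRF2 and glutathione genes (37%) and TGF-beta and BMP genes (34.4%). It was also above that in sterol genes (30.4%), and near it in cytosolic chaperones (26.3%). In Notch pathway genes 23.5% were higher. Of 23 genes of sterol synthesis and uptake, 2 were higher and 7 lower than in wild type (median log2 fold change -0.14), while 5 were higher and none lower than in clones 2 and 3. Of 27 NRF2 targets and genes of glutathione metabolism, 4 were higher and 10 lower than in wild type (median -0.14), and 9 were higher and 1 lower than in clones 2 and 3. Among 23 growth factors and receptors of the EGF and FGF families 4 were higher and 9 lower, and among 32 genes of TGF-beta and BMP signalling 5 were higher and 11 lower. Of 17 Notch pathway genes 4 were higher and 1 lower (median 0.13). Cytosolic chaperones had 5 of 19 lower and none higher, and 8 lower without wild-type replicate 1. Replication-dependent histones had 6 of 60 higher and 8 lower, and 5 higher and 14 lower without that library. Of 21 interferon-stimulated genes 2 were higher and 2 lower, and without it 1 of 23 was higher and 6 were lower. Of 50 microRNA genes that passed the count filter 9 were higher and none lower than in wild type, with 1 higher than in clones 2 and 3. None of the 39 Hox genes passed the filter.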
